A study of Mus musculus with 6 samples.

Results

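The 10 genes described here encode parts of the bone morphogenetic protein (BMP) pathway in the endothelium: the ligands Bmp4 and Bmp6, the receptors Bmpr2, Acvrl1 and Eng, the inhibitory Smads Smad6 and Smad7, and the Id genes Id1, Id2 and Id3. They were chosen by name, through the Ensembl gene identifier of each row, and each matched 1 of the 41214 genes in the table of expected counts. All 10 passed the filter on low counts, with values in CPM (counts scaled to a common library size) above its floor in both libraries of each group, and so belong to the 10952 genes tested.

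BMP ligands bring together a type II receptor, such as the one encoded by Bmpr2, and a type I receptor, such as ALK1, the product of Acvrl1. The type I receptor then phosphorylates Smad1, Smad5 or Smad9, which enter the nucleus with Smad4 and switch on target genes, among them the Id genes and the genes of the inhibitory Smads that damp the pathway. In the endothelium ALK1 and its co-receptor endoglin, encoded by Eng, mainly serve the circulating ligands BMP9 and BMP10, and the pathway is known for restraining vessel sprouting together with Notch, whose endothelial ligand is Dll4.

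The study compared endothelial cells of embryonic mouse hearts in which Dll4 had been deleted on both alleles (Dll4-/-, called KO), on 1 allele (Dll4+/-, het) or on neither (WT, here wt), with 2 libraries in each group. The KO embryos came from Dll4 flox/flox mice with Pdgfb-iCreERT2-IRES-EGFP crossed to Dll4 flox/flox females, the het embryos from the same kind of mice crossed to wildtype females, and the wt embryos from Pdgfb-iCreERT2-IRES-EGFP mice crossed to wildtype females. All 3 groups therefore carried the Cre and EGFP transgene, which the Pdgfb promoter drives, and all received tamoxifen at E13.5, with hearts taken at E14.5 (embryonic days). Deletion can occur only in cells that express this transgene, and cells positive for both CD31 and EGFP were sorted and sequenced in bulk. Several litters were collected per the labels, but it is not stated whether the 2 libraries of a group came from separate pools of hearts, so the p-values measure the spread between these libraries, which may be technical.

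Each library held between 1537908 and 6501798 counts, and the KO libraries were the deepest. Dll4 stood at 19.4 and 13.7 CPM in the KO libraries, 81.2 and 85.9 CPM in the het libraries, and 196 and 183 CPM in the wt libraries. The KO libraries also stood apart in makeup, since Lars2, a gene with sequence resembling ribosomal RNA, took 0.0572% and 0.0611% of counts in KO, but 17.1% and 16.4% in het and 16.3% and 16.7% in wt. No batch is given in the labels, so a batch shared by both KO libraries cannot be told apart from the genotype. The 10 endothelial markers summed to 5672 and 5591 CPM in KO, 6082 and 6531 CPM in het, and 6790 and 6561 CPM in wt. In KO against wt 2 of these markers were higher and 3 lower, with a median log2 fold change of 0.02 over the 10. Cdh5, which encodes VE-cadherin, had 421 and 381 CPM in KO, 1808 and 1910 CPM in het, and 1981 and 1928 CPM in wt, and fell in KO against wt (edgeR adjusted p = 1.87e-13). Tek, which encodes the angiopoietin receptor TIE2, had 392 and 336 CPM in KO, 236 and 218 CPM in het, and 212 and 215 CPM in wt, and rose in KO against wt (edgeR adjusted p = 1.23e-05). Both were picked for naming after their values were seen. Markers of cardiomyocytes summed to 60.5 and 52.2 CPM in KO, 245 and 193 CPM in het, and 126 and 113 CPM in wt. Those of mural cells and fibroblasts summed to 241 and 133, 322 and 403, and 188 and 252 CPM in the same order of groups, those of the epicardium to 73.2 and 77.0, 107 and 122, and 107 and 109 CPM, and those of macrophages to 56.2 and 34.1, 212 and 75.7, and 43.7 and 75.3 CPM. Endocardial markers summed to 404 and 289.9, 683 and 339, and 414 and 441 CPM, and red cell markers to 216 and 169.98, 118 and 377, and 414 and 122 CPM. At 0 stood Ryr2 of cardiomyocytes and Myh11 of mural cells in the KO and wt libraries.

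Expression per kilobase of exon spanned a wide range among the 10 genes. In the KO libraries the order of mean CPM per kb was Id3 at 191, Eng at 128, Id1 at 48.7, Id2 at 19.4, Smad6 at 18.9, Acvrl1 at 17.4, Bmp4 at 8.98, Smad7 at 7.37, Bmp6 at 6.38 and Bmpr2 at 1.69. Id2 overlapped Smad6, and Smad7 overlapped Bmp6, across the 2 KO libraries. The het libraries had Id3 at 260.4, Eng at 212, Id1 at 94.9, Id2 at 25.9, Smad6 at 19.4, Acvrl1 at 11.8, Smad7 at 10.7, Bmpr2 at 7.21, Bmp4 at 5.42 and Bmp6 at 1.36 CPM per kb. Among het libraries Id2 overlapped Smad6, and Acvrl1 overlapped Smad7. In the wt libraries Id3 stood at 260.3, Eng at 199, Id1 at 78.7, Smad6 at 17.2, Id2 at 15.2, Acvrl1 at 14.6, Smad7 at 11.7, Bmp4 at 9.16, Bmpr2 at 7.71 and Bmp6 at 1.71 CPM per kb. Among wt libraries Id2 overlapped Acvrl1, and Bmp4 overlapped Bmpr2. The exons of Bmpr2 together span 17983 bases but its longest transcript 12899 bases, which gives 2.35 CPM per kb in KO, 10.05 in het and 10.7 in wt. With every gene measured by its longest transcript, Bmpr2 kept its place in KO and het, and in wt its mean came before that of Bmp4, at 9.97. Id3, Eng and Id1 thus led in every group, while Bmpr2 was last in KO and Bmp6 was last in het and wt.

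**Figure D1:**
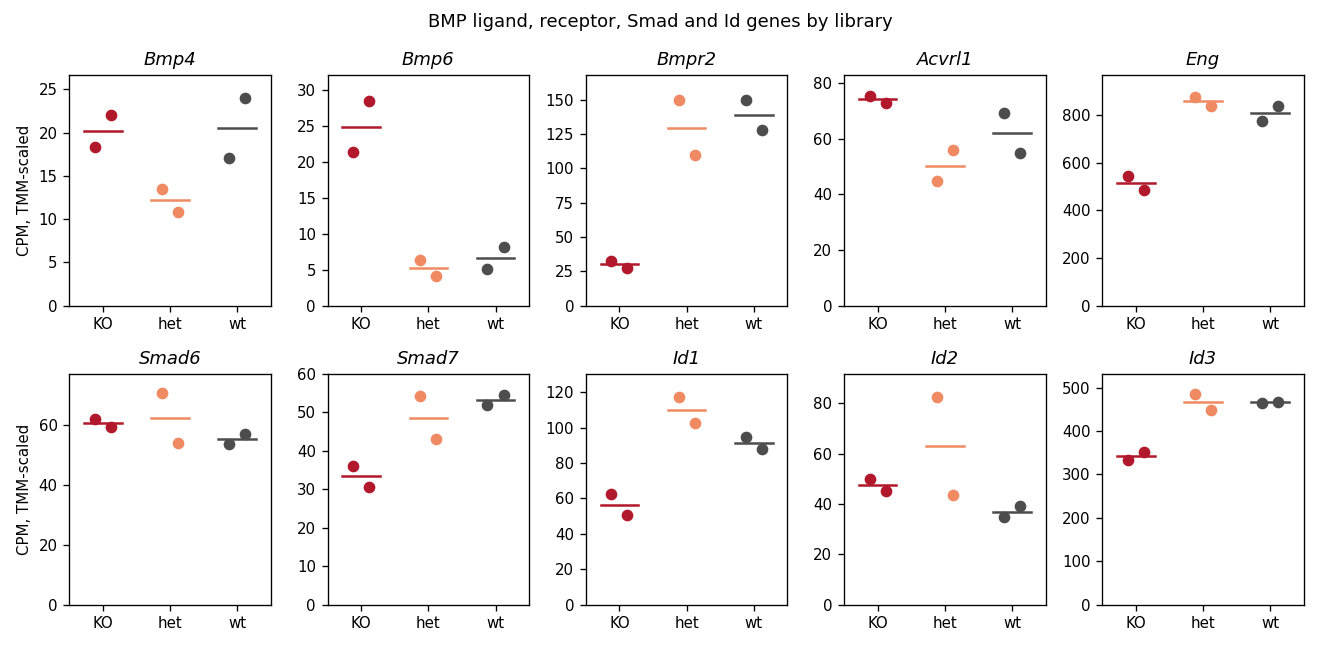
Expression of the 10 genes in CPM scaled by TMM (vertical axis, linear, from 0) in each library of KO (left, red), het (middle, orange) and wt (right, grey); points are libraries and bars are group means. Bmpr2 lies at 32.9 and 27.8 CPM in KO, below all het and wt libraries, and Bmp6 at 21.3 and 28.5 CPM in KO, above all of them.

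The RefSeq promoter table on GRCm38.p6 matched 7 of the 10 genes by symbol, and 4 of these passed the test in KO against wt. They are shown because Bmp6 differed in the opposite direction from Bmpr2, Eng and Id3. The 250 bases before the annotated start are given 5′ to 3′ on the gene's own strand, with capitals on matches, on either strand, to TGGGAA, the core bound by the Notch partner RBPJ, to GGCGCC, a GC-rich element bound by BMP-activated Smads, and to CAGAC, the core Smad element.
Bmp6, chr13:38345466-38345715, strand +: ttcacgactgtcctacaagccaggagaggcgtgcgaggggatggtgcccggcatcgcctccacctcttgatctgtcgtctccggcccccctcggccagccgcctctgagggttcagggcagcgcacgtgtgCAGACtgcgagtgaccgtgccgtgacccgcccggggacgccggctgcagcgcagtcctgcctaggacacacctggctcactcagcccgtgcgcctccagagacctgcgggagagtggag
Bmpr2, chr1:59764029-59764278, strand +: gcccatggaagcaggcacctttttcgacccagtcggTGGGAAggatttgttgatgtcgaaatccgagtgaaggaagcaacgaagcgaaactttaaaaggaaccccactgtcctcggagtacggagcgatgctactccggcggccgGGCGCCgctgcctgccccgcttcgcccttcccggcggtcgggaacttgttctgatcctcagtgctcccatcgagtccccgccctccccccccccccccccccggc
Eng, chr2:32646345-32646594, strand +: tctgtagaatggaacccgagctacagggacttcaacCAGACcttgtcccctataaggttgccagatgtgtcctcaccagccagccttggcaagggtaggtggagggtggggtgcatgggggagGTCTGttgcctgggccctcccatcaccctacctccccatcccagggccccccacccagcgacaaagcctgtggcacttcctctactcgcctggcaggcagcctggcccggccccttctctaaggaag
Id3, chr4:136143572-136143821, strand +: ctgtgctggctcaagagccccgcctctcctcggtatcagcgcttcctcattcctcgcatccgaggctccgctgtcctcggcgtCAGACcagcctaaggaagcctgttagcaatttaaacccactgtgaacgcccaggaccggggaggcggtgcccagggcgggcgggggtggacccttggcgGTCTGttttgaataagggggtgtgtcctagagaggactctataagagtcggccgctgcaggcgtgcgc
The annotated start is that of RefSeq. GENCODE places the starts of Bmp6, Bmpr2 and Id3 earlier, at 38345107, 59763400 and 136143497, so their windows lie inside the GENCODE gene. The Eng window ends just before its GENCODE start, at 32646595. The Bmpr2 window held TGGGAA at position -214 and GGCGCC at -105, counted from the RefSeq start. Bmp6 held CAGAC at -119, Eng held it at -214 and, on the opposite strand, at -127, and Id3 held it at -167 and, on the opposite strand, at -68. Of all 32851 windows in the table, which run to 50 bases past the start, 25.6% held TGGGAA, 11.9% GGCGCC and 49.6% CAGAC. The E-box CANNTG, bound by the basic helix-loop-helix factors that Id proteins keep from DNA, was in 72.3% of windows and, among these 4 genes, in those of Bmp6 and Eng. A match is only a run of letters, and no match says only that these letters are not in the window.

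KO was set against wt to ask how these genes respond to the loss of both Dll4 alleles. Bmpr2 fell 4.57-fold, Bmp6 rose 3.82-fold, and Id1, Smad7, Eng and Id3 fell between 1.36-fold and 1.62-fold. Bmp4, Acvrl1, Smad6 and Id2 did not pass the test. At an edgeR adjusted p under 0.05, 1 of the 10 genes was therefore higher and 5 were lower, where 14.7% of all tested genes were higher and 17.3% were lower. The median log2 fold change was -0.23 over the 10 genes and -0.02 over all tested genes. In bulk RNA, fewer cells of a type and less RNA per cell cannot be told apart. Beside these genes, 4 of 9 tested cardiomyocyte markers were lower in KO than in wt, and of 9 tested markers of mural cells and fibroblasts 1 was higher and 3 were lower; their part in the results was not tested. Calls for Bmp6, Bmpr2 and Eng held in all 13 alternative settings and left-out libraries, whereas those for Smad7, Id1 and Id3 did not, as given with each gene. Under scaling by library size alone the median of all genes moved to 0.35, so directions are relative to the TMM scale. Under that scaling 3878 genes were higher and 1034 lower, against 1610 and 1899 with TMM.

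Among the ligands, Bmp6 is best known as the endothelial signal that raises hepcidin in the liver, and lies on chromosome 13 from 38345107 to 38500302 (GRCm38, plus strand). It had 164 and 168 counts in the KO libraries, 9 and 12 in het and 12 and 13 in wt. These counts correspond to 21.3 and 28.5 CPM in KO, with exact 95% binomial intervals of 18.2 to 24.8 and 24.4 to 33.1. The het values were 6.41 CPM (2.93 to 12.2) and 4.19 CPM (2.16 to 7.32), and the wt values 5.14 CPM (2.65 to 8.97) and 8.23 CPM (4.38 to 14.1), all covering counting error only. Both KO libraries lay above every het and wt library, and their intervals did not meet those of the others. Bmp6 rose by 1.93 ± 0.35 (SE) on the log2 scale in KO against wt, with edgeR adjusted p = 1.94e-04. Its exons overlap those of Txndc5, an endoplasmic reticulum disulfide isomerase gene on the opposite strand, and the library kit does not mark strand. Txndc5 stood at 279 and 273 CPM in KO, 186 and 191 CPM in het, and 209 and 207 CPM in wt, and rose as well in KO against wt (log2 fold change 0.41 ± 0.10, edgeR adjusted p = 0.00404). Of the 6 Bmp6 values 0 were not whole, and the part of Txndc5 in them was not tested.

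Bmp4, a ligand used in early heart and valve development, lies on chromosome 14 from 46383520 to 46390669. It had 18.3 and 22.1 CPM in KO, 13.53 and 10.8 CPM in het, and 17.1 and 24.0 CPM in wt. KO and wt libraries overlapped, and the 2 het libraries were the lowest of the 6. In KO against wt its log2 fold change was -0.0092 ± 0.27, with a 95% interval from -0.57 to 0.55 and edgeR adjusted p = 0.984. Its sign turned in 7 of the 13 alternatives, with values between -0.22 and 0.35. Its exons overlap those of Gm15217 on the opposite strand, which had 0 counts in all 6 libraries.

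Among the receptors, Bmpr2 encodes the type II BMP receptor that is mutated in human heritable pulmonary arterial hypertension. It lies on chromosome 1 from 59763400 to 59879014 (GRCm38, plus strand; ENSMUSG00000067336). Its level was 32.9 and 27.8 CPM in KO, 149.6 and 109.6 CPM in het, and 149.4 and 127.8 CPM in wt. The KO libraries were far below the rest, and het and wt libraries overlapped. Bmpr2 fell by 2.19 ± 0.16 on the log2 scale in KO against wt (edgeR adjusted p = 2.83e-09), and between 1.83 and 2.32 over the 13 alternatives. The 1091 genes in the longest 10% by transcript length, to which Bmpr2 belongs, had a median log2 fold change of -0.33 in KO against wt. Measured from that median, Bmpr2 stood at -1.86, and from that of its 10% bin by C content at -2.23. The medians did not fall steadily with length. The next longest 10% had a median of -0.03, genes from 3477 to 3990 bases one of 0.16, and the shortest 10% one of -0.26.

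Eng, which encodes the co-receptor endoglin, lies on chromosome 2 from 32646595 to 32682669. It had 546 and 488 CPM in KO, 877 and 839 CPM in het, and 776 and 839 CPM in wt. Both KO libraries were below all others, while het and wt libraries met at 839 CPM. Eng fell by 0.64 ± 0.093 on the log2 scale in KO against wt, 1.56-fold, with edgeR adjusted p = 1.98e-05. Its transcript is in the most C-rich 10% of tested genes, whose median log2 fold change was -0.26, and its own value measured from that median was -0.39. By transcript length its 10% bin had a median of 0.11, from which Eng stood at -0.76. Under library size alone it fell by 0.28 (edgeR adjusted p = 0.0212). Its exons overlap those of Fpgs on the opposite strand, and 4 of its 6 values were not whole; Fpgs had 22.6 and 27.99 CPM in KO, 22.1 and 31.4 CPM in het, and 20.98 and 21.5 CPM in wt, and did not pass. Acvrl1, which encodes the type I receptor ALK1, lies on chromosome 15 from 101128522 to 101145336. Its exons overlap those of Gm16031, an antisense gene with 0 counts in all 6 libraries. Acvrl1 had 75.3 and 72.9 CPM in KO, 44.9 and 55.8 CPM in het, and 69.4 and 55.1 CPM in wt. The KO libraries were the highest of the 6, yet the distance to wt was within the error, with a log2 fold change of 0.24 ± 0.16, a 95% interval from -0.10 to 0.58 and edgeR adjusted p = 0.284. Only scaling by library size called it (log2 fold change 0.60, edgeR adjusted p = 0.00524).

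Of the inhibitory Smads, Smad7 blocks both BMP and TGF-beta receptors, and Smad6 acts mainly on BMP signals. Smad7 had 36.1 and 30.5 CPM in KO, 54.1 and 42.9 CPM in het, and 51.8 and 54.4 CPM in wt. Both KO libraries lay under all others, and the het libraries spread over a wider range than the wt libraries. In KO against wt Smad7 fell 1.59-fold, a log2 fold change of -0.66 ± 0.18 with edgeR adjusted p = 0.00828. This call was lost without KO replicate 2 (-0.55, edgeR adjusted p = 0.0766), without wt replicate 4 (-0.66, 0.0818) or wt replicate 5 (-0.63, 0.0716), with DESeq2 (-0.66, 0.0514) and under library size alone (-0.30, 0.198). Smad6, on chromosome 9 from 63953076 to 64022059, had 62.1 and 59.4 CPM in KO, 70.5 and 53.7 CPM in het, and 53.5 and 57.0 CPM in wt. The groups differed little against the spread within het, and its log2 fold change in KO against wt was 0.14 ± 0.17, with a 95% interval from -0.21 to 0.49 (edgeR adjusted p = 0.560). It was called only under library size alone (0.50, edgeR adjusted p = 0.0188).

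Id1, Id2 and Id3 encode helix-loop-helix proteins without a DNA-binding region, which pair with E proteins and keep them from their sites, and Id1 and Id3 in particular are direct targets of BMP Smads. Id1, on chromosome 2 from 152736251 to 152737410, had 62.2 and 50.7 CPM in KO, 117.5 and 102.6 CPM in het, and 94.6 and 88.0 CPM in wt. Both KO libraries lay below all others. The het libraries lay above the wt libraries, but het against wt did not pass (log2 fold change 0.26, edgeR adjusted p = 0.708). How many of all genes separate the 3 groups in this way was not counted. Id1 fell 1.62-fold in KO against wt (log2 fold change -0.69 ± 0.15, edgeR adjusted p = 0.00129). The call was lost without wt replicate 4 (-0.59, edgeR adjusted p = 0.0575) and under library size alone (-0.33, 0.0865).

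Id3, on chromosome 4 from 136143497 to 136145755, had 333 and 351 CPM in KO, 485 and 448 CPM in het, and 465 and 467 CPM in wt. The KO libraries were below the rest, and the wt libraries lay within the range of het. Id3 fell 1.36-fold in KO against wt, by 0.45 ± 0.094 on the log2 scale with edgeR adjusted p = 9.68e-04, and lost the call under library size alone (-0.083, edgeR adjusted p = 0.504). Id1 and Id3 are both in the 10% of genes with the shortest transcripts, which had a median log2 fold change of -0.26 over 1093 genes. Measured from it they stood at -0.43 and -0.19. From the medians of their 10% bins by C content they stood at -0.70 and -0.41. Id2, on chromosome 12 from 25093799 to 25097140, had 49.9 and 45.0 CPM in KO, 82.6 and 43.6 CPM in het, and 34.7 and 39.2 CPM in wt. KO libraries were above wt libraries, and het replicate 2 was high while het replicate 3 stood just under the KO libraries. Its log2 fold change in KO against wt was 0.37 ± 0.25, with a 95% interval from -0.16 to 0.90 (edgeR adjusted p = 0.282), and only scaling by library size called it (0.73, edgeR adjusted p = 0.0280).

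**Figure D2:**
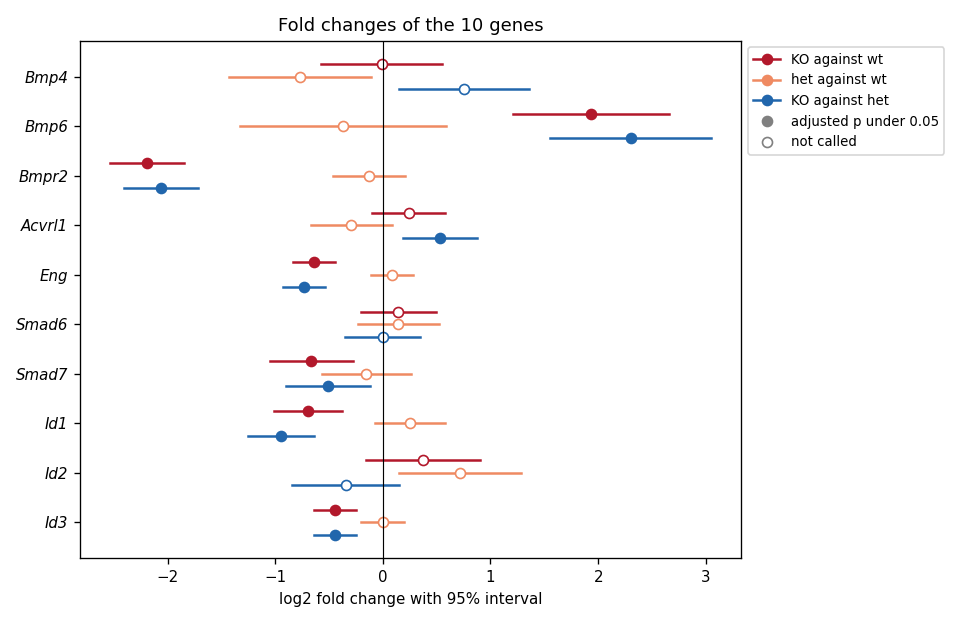
Log2 fold change (horizontal axis) with its 95% interval for each of the 10 genes in KO against wt (red), het against wt (orange) and KO against het (blue), from the edgeR fit over all genes; filled points passed an adjusted p under 0.05. Bmpr2 lies near -2 and Bmp6 near 2 in both comparisons with KO, and all het against wt points are open.

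Het was set against wt to ask how they respond when a single allele is lost. Of the 10 genes 0 were called by edgeR, by DESeq2 or by limma-voom, where 0.173% of all tested genes were called by edgeR in either direction. The gene Id2 had a log2 fold change of 0.72 ± 0.26 (unadjusted p = 0.0169, edgeR adjusted p = 0.441), and Bmp4 one of -0.77 ± 0.32 (unadjusted p = 0.0248, edgeR adjusted p = 0.510); these were the only 2 of the 10 with an unadjusted p under 0.05. Het replicate 2 carried the Id2 difference: without het replicate 3 the log2 fold change was 1.17 and passed (edgeR adjusted p = 0.0170), and the lowest value over the alternatives was 0.25. Het replicate 2 had the fewest counts of the 6 libraries and the highest summed markers of macrophages, cardiomyocytes and endocardium. These sums were 212, 245 and 683 CPM, against 75.7, 193 and 339 CPM in het replicate 3. The part of depth and of these cell types in the Id2 value was not tested. Bmpr2 had a log2 fold change of -0.13 ± 0.16, with a 95% interval from -0.46 to 0.21, so the interval holds no loss near the size seen in KO. Eng stood at 0.088 ± 0.094 (95% interval -0.11 to 0.28) and Id3 at -0.0016 ± 0.096 (-0.20 to 0.20). The median over the 10 genes was -0.06, and 0.01 over all tested genes.

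KO against het, which shares its KO libraries with the comparison with wt, had 2 of the 10 genes higher and 5 lower, where 13.9% of all tested genes were higher and 17.2% lower. Bmp6 rose 4.93-fold (log2 fold change 2.30 ± 0.36, edgeR adjusted p = 4.86e-05), and Acvrl1 rose 1.45-fold (0.53 ± 0.17, edgeR adjusted p = 0.0186). Bmpr2 fell 4.18-fold (edgeR adjusted p = 7.78e-09), Id1 fell 1.93-fold (5.04e-05), Eng fell 1.66-fold (4.34e-06) and Id3 fell 1.36-fold (0.00106). Smad7 fell 1.43-fold (edgeR adjusted p = 0.0416), a call lost in 8 of 13 alternatives, among them the fits without KO replicate 2 (0.225), het replicate 2 (0.266), wt replicate 4 (0.0938) and wt replicate 5 (0.0705). The Acvrl1 call was lost without KO replicate 1 (edgeR adjusted p = 0.0755), without het replicate 2 (0.115) and with DESeq2 (0.0728), and the Id3 call under library size alone (0.595). Bmp4 had a log2 fold change of 0.76 ± 0.29 and missed the threshold (edgeR adjusted p = 0.0518), but was called in 5 of the 13 alternatives, among them the fit without wt replicate 4 (0.0499). Id2 missed it as well (-0.35 ± 0.23, edgeR adjusted p = 0.293) but passed without het replicate 3 (-0.79, 0.00829), and its sign turned without het replicate 2 (0.13) and under library size alone (0.032). Smad6 stood at -0.0022 ± 0.17 in KO against het. Under library size alone 3930 genes were higher and 1016 lower, against 1524 and 1888 with TMM. All 9 tested cardiomyocyte markers and 5 of 9 tested markers of mural cells and fibroblasts were lower in KO than in het, and their part in these results was not tested.

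The last comparison sets het against the midpoint of wt and KO on the log2 scale, to show which genes lay off that midpoint with a single intact allele. Dll4 itself lay 0.57 above it (edgeR adjusted p = 0.00911), and between 0.37 and 0.71 over the 12 alternatives. Its call was lost under library size alone and without het replicate 3, wt replicate 4 or wt replicate 5. Lying off the midpoint is therefore not in itself a departure from the level of Dll4. Of the 10 genes 3 were above the midpoint and 1 below, where 7.81% of all tested genes were above and 3.68% below. Bmpr2 lay 0.97 ± 0.14 above it (edgeR adjusted p = 6.69e-05), Id1 0.60 ± 0.13 (0.00395) and Eng 0.41 ± 0.080 (0.00157), and Bmp6 lay at -1.33 ± 0.37 (0.0219). Each of these stood on the wt side, and the het means of Id1, Eng and Bmp6 were beyond those of wt in value. Bmpr2 kept its call in all 12 alternatives. Eng lost its call under library size alone (0.21, edgeR adjusted p = 0.0735) and Id1 without het replicate 2 (0.50, 0.0630). Bmp6 lost its call in 5 of the 12, namely with DESeq2 (-1.33, adjusted p = 0.0992), limma-voom (-1.31, 0.112) and, by edgeR, without KO replicate 2 (-1.22, 0.0799), het replicate 3 (-0.98, 0.247) or wt replicate 5 (-1.18, 0.102). Id2 had 0.53 ± 0.21 (edgeR adjusted p = 0.142) and was called without het replicate 3 (0.98, 0.00456) and with no filter (0.50, 0.0368). Under library size alone 559 genes lay above the midpoint and 1603 below, against 855 and 403 with TMM. Markers of other cell types lay above the midpoint too, namely 7 of 9 tested for cardiomyocytes, 2 of 9 for mural cells and fibroblasts and 2 of 4 for macrophages, and their part was not tested.

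Ratios of counts between 2 genes of the same library do not depend on the scaling. Bmpr2 had 0.436 and 0.381 counts per count of Acvrl1 in KO, 3.33 and 1.96 in het, and 2.15 and 2.32 in wt. The type II receptor thus gave fewer counts than ALK1 in KO and more in het and wt, although counts of different genes also follow their lengths. Eng to Acvrl1 was 7.25 and 6.68 in KO, 19.6 and 15.0 in het, and 11.2 and 15.2 in wt, again lowest in both KO libraries. Smad6 to Smad7 was 1.72 and 1.94 in KO, 1.30 and 1.25 in het, and 1.03 and 1.05 in wt, with no overlap between the groups. Id2 to Id1 was 0.802 and 0.886 in KO, 0.703 and 0.425 in het, and 0.367 and 0.446 in wt. Id3 to Id1 was 5.35 and 6.93 in KO, 4.13 and 4.36 in het, and 4.92 and 5.31 in wt, again with no overlap between the groups, KO highest and het lowest. Bmp6 to Bmp4 was 1.16 and 1.29 in KO, 0.474 and 0.387 in het, and 0.300 and 0.342 in wt. These groups did not overlap either, although the Bmp6 counts in het and wt were low. How often ratios of other gene pairs separate the groups was not counted. With 2 libraries a group no exact test of a ratio can pass, and none was run.

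**Figure D3:**
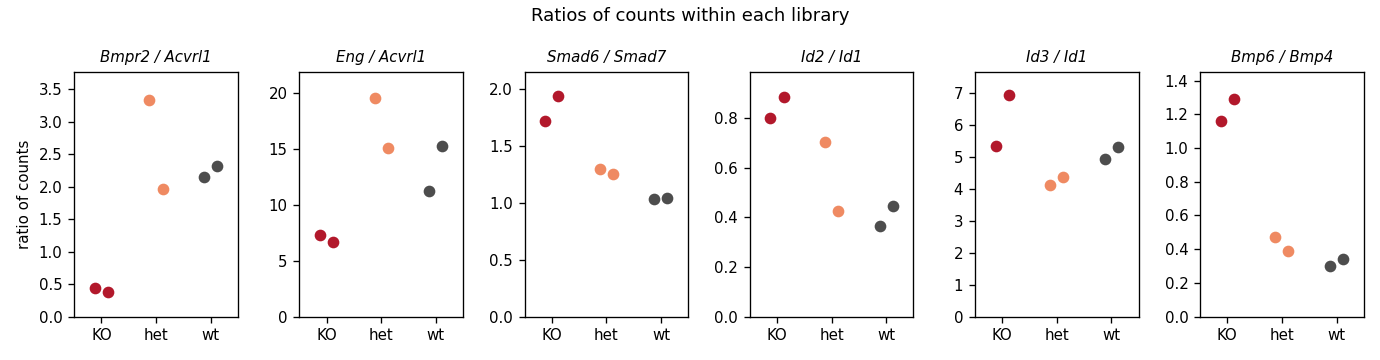
Ratio of the counts of 2 genes within each library (vertical axes, linear, from 0) for KO (left, red), het (middle, orange) and wt (right, grey); each point is 1 library. Bmpr2 to Acvrl1 lies at 0.436 and 0.381 in KO and at 1.96 or above in the other libraries, while Smad6 to Smad7 is highest in KO.

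The rest of the BMP and TGF-beta pathway was read from a list of 58 other genes, of which 37 were tested. In KO against wt 4 of the 37 were higher and 13 lower, with a median log2 fold change of -0.30, beside 14.7% higher and 17.3% lower among all tested genes. KO against het had 4 higher and 10 lower (median -0.27), beside 13.9% higher and 17.2% lower among all tested genes. Het against wt had 0 called by edgeR, DESeq2 or limma-voom and 0 with an unadjusted edgeR p under 0.05. Het lay above the midpoint for 3 of the 37, Tgfb1, Ppm1a and Smurf2, beside 7.81% of all tested genes. The Smurf2 call (edgeR adjusted p = 0.0305) was lost in 6 of 12 alternatives, namely with DESeq2 (0.135), under library size alone (0.246) and without KO replicate 2 (0.106), het replicate 3 (0.315), wt replicate 4 (0.0928) or wt replicate 5 (0.122). The number called in KO against wt ranged from 8 to 19 over the alternatives and was 8 without KO replicate 2 and 8 without wt replicate 4.

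Among 6 tested ligands 2 fell in KO against wt. Tgfb1, which encodes the TGF-beta ligand TGF-beta1, had 89.9 and 79.4 CPM in KO, 271 and 251.3 CPM in het, and 261 and 223 CPM in wt. Both KO libraries were far below the others, and Tgfb1 fell 2.86-fold in KO against wt (edgeR adjusted p = 4.47e-09). Bmp2 had 8.83 and 11.54 CPM in KO, 10.7 and 10.1 CPM in het, and 12.4 and 12.7 CPM in wt, and did not pass. Gdf2, the gene of BMP9, stood at 3.80 CPM or less, and Bmp10 had counts in 1 KO library only, at 0.170 CPM; neither was tested. In KO against het Tgfb2 also fell (log2 fold change -1.45 ± 0.39, edgeR adjusted p = 0.0104), a call lost without KO replicate 2 (-1.002, 0.0719) or het replicate 2 (-0.98, 0.114).

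Of 9 tested receptors 1 was higher and 4 were lower in KO against wt. Acvr1, the gene of the type I receptor ALK2, had 46.4 and 38.2 CPM in KO, 81.2 and 68.4 CPM in het, and 89.5 and 67.7 CPM in wt, and fell 1.87-fold in KO against wt (edgeR adjusted p = 3.68e-04). Without wt replicate 4 this call was lost (-0.63, edgeR adjusted p = 0.0660). Acvr1b, which encodes the activin receptor ALK4, had 3.38 and 2.04 CPM in KO, against 9.85 and 10.8 CPM in wt, and fell 3.71-fold (edgeR adjusted p = 0.00500). It lost its call without KO replicate 2 (-1.59, edgeR adjusted p = 0.0516) or wt replicate 4 (-1.92, 0.0525). Tgfbr2, the type II TGF-beta receptor gene, fell 1.38-fold (edgeR adjusted p = 0.00257), a call lost without KO replicate 2 (-0.37, 0.0618) or wt replicate 4 (-0.38, 0.0870) and under library size alone (-0.10, 0.479). Acvr2a, another type II receptor gene that can bind BMPs, rose in KO against het (49.0 and 55.5 CPM in KO, against 22.8 and 36.6 CPM in het; edgeR adjusted p = 0.0166), a call lost with DESeq2 (0.0554) and without KO replicate 2 (0.0884) or het replicate 2 (0.138). Its level in wt was 36.8 and 22.8 CPM. The type I receptor gene Bmpr1a had 5.58 and 6.11 CPM in KO, 11.4 and 4.89 CPM in het, and 3.42 and 8.86 CPM in wt, and did not pass.

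Among the signal-carrying Smads 2 of 5 tested were higher and 1 lower in KO against wt. Smad1, a BMP-activated Smad, had 183 and 221 CPM in KO, 113 and 133 CPM in het, and 110 and 98.7 CPM in wt. Its KO libraries were the highest, and it rose 1.93-fold in KO against wt (edgeR adjusted p = 1.25e-05) and 1.63-fold in KO against het (2.90e-04). Smad5, which carries the same signal, had 88.2 and 89.7 CPM in KO, 100.4 and 112 CPM in het, and 128 and 123 CPM in wt, and fell 1.41-fold in KO against wt (edgeR adjusted p = 0.00485), a call lost under library size alone (-0.14, 0.409) and without wt replicate 4 (-0.42, 0.0998). Smad1 and Smad5 thus differed in opposite directions in the same libraries. Smad4, the shared partner, rose 1.32-fold in KO against het (edgeR adjusted p = 0.0152), a call lost without KO replicate 1 (0.0501), KO replicate 2 (0.0892) or het replicate 3 (0.137).

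Of 8 tested intracellular inhibitors 3 fell in KO against wt. Smurf2, a ubiquitin ligase that marks Smads and receptors for breakdown, had 68.4 and 60.2 CPM in KO, 114 and 133 CPM in het, and 142 and 130.4 CPM in wt, and fell 2.12-fold (edgeR adjusted p = 3.40e-06). Ppm1a, a phosphatase that acts on Smads, had 46.2 and 59.7 CPM in KO, 131 and 113 CPM in het, and 110.0 and 111 CPM in wt, and fell 2.09-fold (edgeR adjusted p = 1.56e-05). Fkbp1a, whose product FKBP12 holds type I receptors inactive, fell 1.22-fold (edgeR adjusted p = 0.00923), a call lost without KO replicate 1 (0.108), KO replicate 2 (0.0638) or wt replicate 4 (0.0959), with its sign turned under library size alone (0.076, edgeR adjusted p = 0.482). Of 10 secreted antagonists 2 were tested, Twsg1 and Crim1, and neither passed; Nog and Chrd, the genes of noggin and chordin, had at most 0.349 and 0.779 CPM in any library.

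Among target genes and Id partners, 1 of 7 tested was higher and 3 were lower in KO against wt. Tcf4, which encodes an E protein that Id proteins bind, had 419.7 and 458 CPM in KO, 591 and 689 CPM in het, and 734 and 622 CPM in wt, and fell 1.55-fold (edgeR adjusted p = 8.66e-05). Tcf12, another E protein gene, fell 1.38-fold (edgeR adjusted p = 0.0102), a call lost without KO replicate 2 (0.131) or wt replicate 4 (0.227) and under library size alone (0.570). Tcf3, the third E protein gene, rose 1.35-fold in KO against het (edgeR adjusted p = 0.00483), with 220.4 and 238 CPM in KO, against 165 and 175 CPM in het, and lost the call without KO replicate 2 (0.0607). The BMP target genes Tmem100, Atoh8 and Msx1 did not pass, with log2 fold changes between -0.48 and -0.34. In KO against wt the calls for Tgfb1, Smad1, Smurf2, Ppm1a and Tcf4 held in all 13 alternatives.

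**Figure D4:**
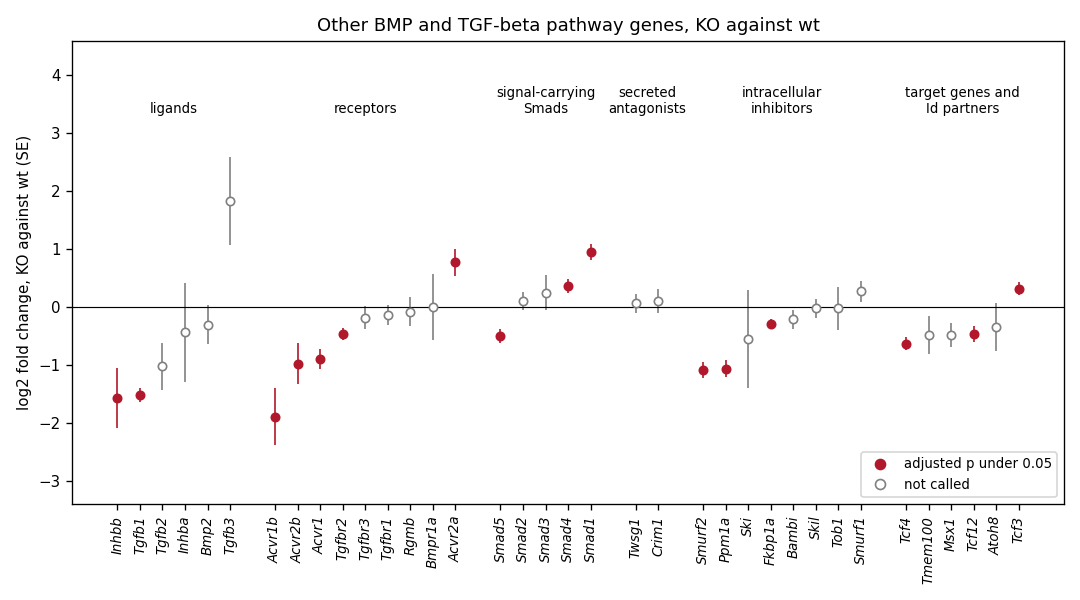
Log2 fold change of KO against wt with its SE (vertical axis) for 36 of the 37 tested genes of the BMP and TGF-beta list, grouped by role along the horizontal axis; filled points passed an edgeR adjusted p under 0.05. Of the genes drawn, 12 called genes lie below 0 and 4 above, with Smad1 and Smad5 on opposite sides.

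Likeness of pattern was described by Pearson's r of log2 CPM over the 6 libraries, among tested genes whose log2 CPM averaged 3 or more. Left out as not eligible were the 10 genes themselves and genes without a symbol. Symbols starting with Gm and a digit, or ending in Rik or in -ps with or without a number, were left out too. The genes most like Bmpr2 were Tead1, Klf4 and Samhd1, with r of 0.999, 0.998 and 0.998. For Bmp6 they were Cse1l, Pmpca and Lrp11, between 0.994 and 0.995, and for Eng they were Ino80, Trim41 and Cbfa2t3, between 0.998 and 0.999. Timm17a, Uba6 and Zfp51 came first for Bmp4, Ptk2, Cabin1 and Slfn9 for Acvrl1, and Klhl23, Col4a5 and Tomm20 for Smad6. Smad7 had Pdzd11, Pbxip1 and Snapc2, Id1 had Rai1, Tbkbp1 and Sall2, Id2 had Aktip, Snrpg and Cdh11, and Id3 had N6amt1, Tanc2 and Naf1. Since 12.6% of eligible genes had r over 0.9 with Bmpr2 and 11.7% with Id3, against 0.667% with Bmp4 and 0.656% with Smad6, such an r is common for genes that set the KO libraries apart, which also share their makeup. Among the 10 genes themselves, Bmpr2 and Id3 were the closest pair, with r = 0.98, and Bmp6 and Id1 the most opposed, with r = -0.94. These are descriptions over 6 libraries, without a test.

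**Figure D5:**
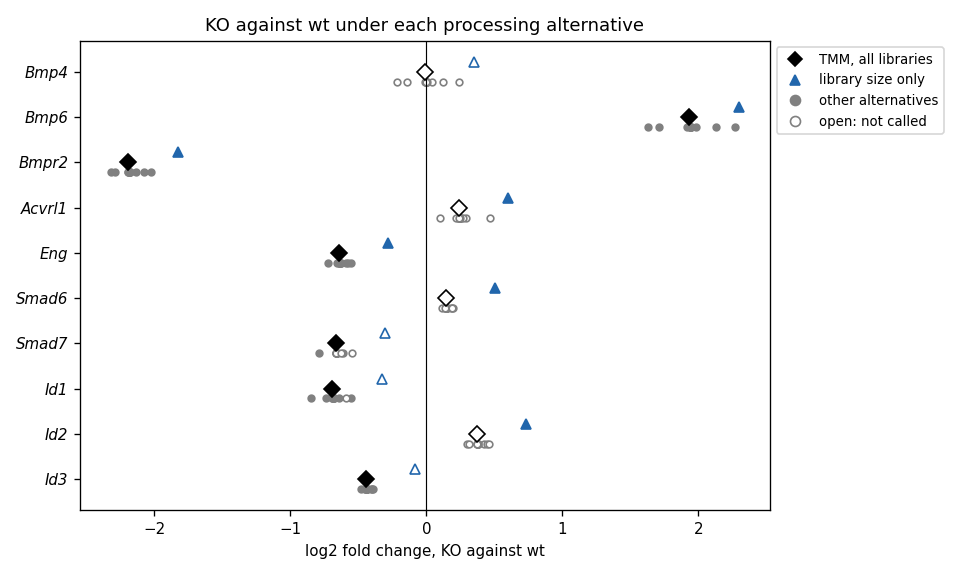
Log2 fold change of KO against wt (horizontal axis) for each of the 10 genes as reported (black diamonds), under scaling by library size alone (blue triangles) and under the 12 other alternatives (grey points); open symbols were not called at an adjusted p under 0.05. Bmpr2, Bmp6 and Eng are filled throughout, and scaling by library size shifts all 10 genes to the right.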

How the data were processed

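RNA was isolated from sorted cardiac endothelial cells with an RNeasy Micro kit, amplified with SMART-Seq v4, which does not mark strand, and made into Nextera XT libraries for Illumina HiSeq sequencing, per the labels' protocols, which disagree on single or paired reads. The authors deposited a single table of expected counts, in which RSEM estimates the reads of each gene and may give fractions; it holds 6 library columns and 0 columns of other samples. Per the submitters' processing notes, CASAVA and cutadapt were also used and the build was GRCm38, with no versions given. Reads that fit more than 1 gene are shared out by RSEM, so shared sequence makes a value uncertain. The table's name points to Ensembl release 76. Gene symbols and positions came from GENCODE release M21 on GRCm38, which matched 97.7% of identifiers, and exon overlaps were looked up for the 10 genes only.

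Expected counts were rounded to whole numbers, since between 4.29% and 5.87% of values in a library were not whole. In R 4.3.3, edgeR 4.0.16 was run with TMM, filterByExpr (minimum count 10) and 1 robust quasi-likelihood fit to all 6 libraries, with two-sided tests and Benjamini-Hochberg adjustment over all 10952 genes tested. A gene was called at an adjusted p under 0.05, and the fit had 3 residual degrees of freedom. The SE of a log2 fold change was derived as its absolute value divided by the square root of the F value of its test. The 95% intervals were built from that SE. The alternatives were RLE scaling, library size alone, leaving out Lars2, mitochondrial and 7SL or 7SK RNA genes, no filter, DESeq2 1.42.0, limma-voom (limma 3.58.1), the 2 groups fitted alone, and each library left out in turn. The procedure was tested on simulated counts, with equal numbers of genes raised and lowered. These counts held no shift in makeup like that of the KO libraries, so they cannot judge the scaling. CPM used the TMM-scaled totals of the tested genes, and CPM per kb the summed exon length. Transcript length and base composition were those of a gene's longest transcript, with genes split into 10 bins of about equal size.

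The 10 genes, the pathway list and the marker lists were chosen with earlier results of these data known. Of the pathway list, called genes were named in order of adjusted p, up to 12 in each comparison, with 3 genes of like pattern for each of the 10. A called gene of that list is counted but not reported by name. Genes of the pathway list that did not pass were picked for naming after their values were seen. Sequences were read from the RefSeq promoter table.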

Additional observations from a re-analysis of the deposited data

How the results depend on the processing

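No paired analysis was possible because the groups share at most 1 replicate number. In KO against wt the number of the 10 genes called stayed between 4 and 6 over the alternatives, in KO against het between 5 and 8, and for het against the midpoint between 3 and 5. In het against wt it was between 0 and 1 with a library left out, the 1 being Id2 without het replicate 3. Counts over all genes moved more. Genes called in KO against wt, 3509 as reported, lay between 2043 (without wt replicate 4) and 3815 with a library left out. Genes called in het against wt, 19 as reported, were 150 with no filter, 11 with limma-voom and between 2 (without wt replicate 4) and 76 (without het replicate 3) with a library left out. For het against the midpoint, 1258 as reported, the count was 2162 under library size alone, 779 with DESeq2 and between 758 (without het replicate 2) and 1153 with a library left out.

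In the pathway list 3 genes turned sign under library size alone and were not called there: Fkbp1a in KO against wt (log2 fold change 0.076), and Tgfbr2 (0.072) and Tcf12 (0.020) in KO against het. That scaling moved the median of all genes to 0.35 in KO against wt and 0.36 in KO against het; the cause of the other changes was not tested. With 2 libraries a group, 1 library can decide a call, and the low counts of Bmp6 in het and wt limit the precision of its fold change.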
